A study of Rattus norvegicus with 4 samples.

Results

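Genes known from the meninges, from mesothelium and from connective tissue stroma were followed in laser-captured rat vestibular ganglion neurons. The set held 10 genes: Upk1b, Moxd1, Rarres1, Slc47a1, Crabp2, Ptgds, Ogn, Dcn, Anxa8 and Itga11. They were found by their platform gene symbol, which gave 13 probes, of which 12 were read and 1 was not. In all, 14667 probes of 11039 genes were read among the 35126 probes on the array. The genes had been picked with earlier results of the same comparison known, so their own differences are given as a description, without a test.

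Neurons of the vestibular ganglion were stained for calretinin, a calcium-binding protein, collected by laser capture microdissection as pools and profiled from total RNA on 1-colour Cy5 arrays. The positive group (2 arrays) held calretinin-positive cells, the afferents that form calyces around hair cells, and the negative group (2 arrays) held cells without calretinin staining, the afferents that end in both calyces and boutons or in boutons alone. Both groups came from stained rat ganglia, and no genotype, strain, treatment, age or number of animals is given in the sources used here. The sample titles gave the groups, since the description fields of the negative samples repeat the wording used for positive cells.

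The meninges are the layered connective tissue sheaths around the brain and the roots of cranial nerves. Their inner layers hold fibroblasts that make retinoic acid, carry transporters for organic ions and secrete matrix proteins. Mesothelium is the flat epithelium that lines body cavities, and it makes keratins and the surface protein mesothelin. Stroma is the fibroblast and collagen framework of a tissue, including that of nerves and vessel walls.

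The array medians lay between 0.9896 and 0.9916 on the deposited linear scale, and the number of arrays, 2 in each group, limits the precision of every value. The labels do not say whether arrays of a group share a pool or an animal, so the spread behind each p-value is that of these arrays and may be technical. Probe names could be taken at their own table row in the early part of the array, while the late part was read 5 table rows later. Across 707 genes with a tested probe in both parts, the log2 changes of the pair correlated at r = 0.327 with late probes read 5 rows later and at r = 0.024 with late probes at their own row (719 genes), and genes are not independent replicates. Values from the late part rest on that reading. Among the genes named below these are Crabp2, the brighter probe of Slc47a1, the dimmer probe of Upk1b, Aldh1a2, Foxp2, Msln, Krt19, Efemp1, Pdpn, Fbln5, Eln, Bgn, Epyc, Ecm2, Itga6, Itgb3, Tgm2, Ptges2, Slco2a1, Anxa1, Anxa2, Anxa11, Upk1a, Krt5, Pparg, Vwf, Fbn1, Thy1, Folr1, Lxn, Igsf11 and Bcan. With late probes at their own table row the sign turned for that probe of Upk1b and for Bgn, Epyc, Folr1, Itga6, Itgb3, Pparg, Slco2a1, Upk1a, Vwf, Lxn and Rxrg, and Efemp1 was not called. The Rxrg probe used below is from the early part, so its turned sign comes from another probe taken under that reading. Slc13a4, Cldn11, Gja1, Gjb2, Cav1, Gpm6a and Cd200, also named below, are from the late part too. Their values at their own table row are not given. Late genes with no value to compare under that reading include Eln, Foxp2, Ecm2 and Anxa11. The check on the titles, Calb2, the calretinin gene, lies in the late part and had 291 and 328 in the positive arrays, against 139 and 129 in the negative arrays. Markers of other cells differed too. The summed level of 11 Schwann and satellite glia markers was 48.9 to 51.4 in the positive arrays and 140.5 to 142.7 in the negative arrays, and that of 11 central oligodendrocyte markers was 27.9 to 30.2 in the positive and 203 to 205 in the negative arrays. For 13 endothelial and mural markers the sum was 38.8 to 39.2 in the positive and 103 to 109 in the negative arrays, and for 8 neuron markers 742 to 752 in the positive and 710 to 718 in the negative arrays. On at least 1 array Mag, a marker of both glial lists, and the endothelial marker Tie1 were at or below 0. Of the tested markers, 0 of 9 Schwann and satellite glia genes were called higher and 6 lower, 0 of 7 oligodendrocyte genes higher and 5 lower, 0 of 6 inner ear genes higher and 5 lower, 4 of 7 neuron genes higher and 1 lower, and 3 of 7 blood and immune genes higher and 3 lower (limma, Benjamini-Hochberg). Over all tested probes, 40.6% were called higher and 23.6% lower. With quantile or loess normalization 2 of the 7 neuron genes were higher and 2 lower. For blood and immune genes 1 was then higher and 3 lower. The part of these cells in the results below was not tested.

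Of the 10 genes, 9 were higher in the positive arrays and 1, Dcn, was lower. In a gene with 2 probes the brighter one was taken. The difference was at least 2-fold higher for 8 genes and at least 4-fold higher for 6. The median log2 change, positive minus negative, was 2.33 over the 10 genes, beside 0.11 over all 21070 tested probes. Both positive arrays lay above both negative arrays for 11 of the 12 probes, as they did for 49.8% of all tested probes, and below them for 1, as for 31.9%. A probe was tested where its mean log2 over all arrays lay above a limit that equals 0.456 in intensity. Of all tested probes 64.2% were called at an adjusted p of 0.05, with 40.6% called higher and 23.6% called lower. Called and at least 2-fold higher were 8.28% of all tested probes, at least 4-fold higher 1.44% and at least 2-fold lower 7.07%. The members were chosen on this comparison, so nothing is read from their counts. The gene lists below were also chosen with earlier results known. They take the brightest probe of a gene, so their shares beside those of all tested probes are a description. Fewer captured cells of a type and less RNA per cell cannot be told apart in such pools.

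**Figure D1:**
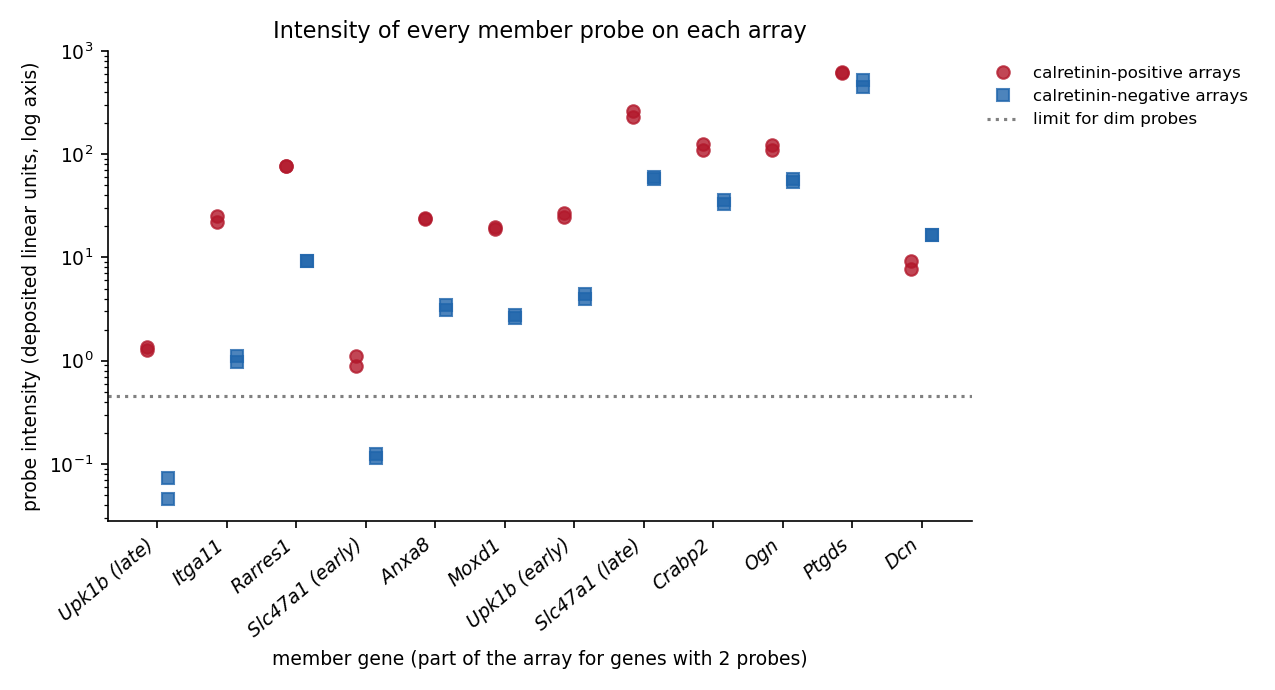
Intensity of each of the 12 member probes on each array (vertical log axis, deposited linear units), with circles for the 2 positive arrays, squares for the 2 negative arrays and a dotted line at the limit for dim probes, 0.456. The circles lie above the squares for every probe except that of Dcn, and the negative arrays lie below the limit for the late probe of Upk1b and the early probe of Slc47a1.

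Promoters of members are shown for their sequence features, which the choice of genes did not use. RefSeq windows on the GRCr8 build were matched by gene ID for 8 of the 10 genes, Dcn and Slc47a1 being the others. The 250 bases before the start are printed for the 4 genes whose listed start is also the outer end of the gene in RefSeq, in lower case, with capitals, on either strand, for the letters GGGCGG of the GC box, for TATAAA of the TATA box, and for AGGTCA, the half-site of nuclear receptors such as the retinoic acid receptors.
Itga11, chr8:72041182-72041431, plus strand: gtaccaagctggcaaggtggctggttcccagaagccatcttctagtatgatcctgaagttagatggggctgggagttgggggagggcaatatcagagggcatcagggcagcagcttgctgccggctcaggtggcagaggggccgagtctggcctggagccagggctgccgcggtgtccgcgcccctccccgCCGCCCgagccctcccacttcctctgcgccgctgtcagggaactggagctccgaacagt
Rarres1, chr2:154094022-154094271, minus strand: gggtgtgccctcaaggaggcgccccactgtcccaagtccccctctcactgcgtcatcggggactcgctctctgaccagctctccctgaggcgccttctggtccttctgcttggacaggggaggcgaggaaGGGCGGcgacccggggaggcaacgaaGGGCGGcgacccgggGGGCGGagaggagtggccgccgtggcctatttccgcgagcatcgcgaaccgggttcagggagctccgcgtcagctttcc
Crabp2, chr2:175714612-175714861, plus strand: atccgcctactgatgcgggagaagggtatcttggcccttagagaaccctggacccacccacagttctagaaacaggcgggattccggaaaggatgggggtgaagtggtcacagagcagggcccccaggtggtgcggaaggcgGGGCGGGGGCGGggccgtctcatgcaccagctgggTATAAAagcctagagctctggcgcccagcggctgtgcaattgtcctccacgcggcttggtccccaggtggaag
Ptgds, chr3:28682979-28683228, minus strand: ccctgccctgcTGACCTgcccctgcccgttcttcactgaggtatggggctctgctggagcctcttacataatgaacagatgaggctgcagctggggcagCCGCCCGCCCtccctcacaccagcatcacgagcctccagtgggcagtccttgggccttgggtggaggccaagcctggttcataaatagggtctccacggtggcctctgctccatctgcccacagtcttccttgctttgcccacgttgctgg

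Rarres1 held 3 GC boxes, Crabp2 held 2 GC boxes and a TATA box, Ptgds held 2 overlapping GC boxes and the half-site, and Itga11 held 1 GC box. Over the 8 windows a GC box was present in 5, against 32.4% of 27457 rat windows of the same length, and a TATA box in 2 (Crabp2 and Ogn), against 13.1%. The half-site AGGTCA was found in 1 of the 8, against 13.7%. GGAATG, the letters bound by TEAD factors, was found in 3 (Upk1b, Ogn and Anxa8), against 11.8%, CCAAT in 2, against 34.3%, TGANTCA, the AP-1 motif, in 0, against 6.36%, and CANNTG, the E-box, in 7, against 65.2%. The GC content of the windows ran from 46.0% for Ogn to 69.2% for Rarres1, beside a median of 52.0% over all windows. For Upk1b, Moxd1, Ogn and Anxa8 the listed start is not the outer end of the gene, so their windows may not be at the main start. Every match of GGAATG and of CCAAT, and the TATA box of Ogn, lies in these windows. A match is a run of letters and not a shown binding site.

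Among the surface and matrix receptor genes, Itga11 differed most of the tested members. It encodes the alpha-11 integrin subunit, which pairs with the beta-1 subunit and binds fibrillar collagen on fibroblasts. Its early probe had intensities of 25.0 and 22.2 in the positive arrays, against 0.968 and 1.12 in the negative arrays. The groups were far apart, and the lowest of the 4 ratios between a positive and a negative array was 19.8. The mean was 23.6 ± 1.98 in the positive arrays and 1.04 ± 0.108 in the negative arrays (SD, n = 2 each), a log2 change of 4.50. Of all tested probes, 0.0522% had a higher log2 change. A second Itga11 probe lies between the 2 parts of the array and was not read.

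Other integrin genes were more often lower than higher. Of 9 other integrin subunit genes tested, 0 were called higher, 6 were called lower and 3 were not called (limma, Benjamini-Hochberg, adjusted p under 0.05). Of all tested probes, 40.6% were called higher and 23.6% lower. Their median log2 change was -0.76, beside 0.11 over all tested probes. Itgb1, the gene of the partner subunit, had 0.658 ± 0.124 in the positive arrays and 3.16 ± 0.299 in the negative arrays (SD, n = 2 each), a log2 change of -2.27 ± 0.15 (SE; limma adjusted p = 1.01e-06). Itga6, a laminin receptor subunit gene, had 1.65 ± 0.0203 in the positive arrays and 9.07 ± 0.224 in the negative arrays, a log2 change of -2.46 ± 0.07 (limma adjusted p = 1.07e-08). Itgb3 had a log2 change of -1.05 (limma adjusted p = 1.12e-06), and its other probe one of -0.35. Itga1, another collagen-binding alpha subunit gene, was too dim to be tested as a mean over the arrays, at 0.190 in the positive arrays and 0.517 in the negative arrays.

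Upk1b encodes uroplakin 1b, a tetraspanin membrane protein of the urothelium that mesothelial cells also make. Its early probe had 24.9 and 27.1 in the positive arrays, against 4.42 and 3.93 in the negative arrays. The positive arrays stood 5.62-fold to 6.88-fold above the negative ones over the 4 pairs of arrays, and the log2 change was 2.64. Its late probe was dim, with 1.28 and 1.35 in the positive arrays, against 0.0453 and 0.0723 in the negative arrays, which lie below the limit for dim probes. Both probes were higher in both positive arrays with the late probe read 5 rows later. At its own table row the late probe had 1.47 and 1.39 in the positive arrays, against 1.67 and 1.83 in the negative arrays, the opposite direction.

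Of the 5 other urothelial genes tested, 2 were called higher, 1 was called lower and 2 were not called, shares near the 40.6% and 23.6% over all tested probes. Upk1a, the gene of the sister tetraspanin, had 36.2 ± 2.52 in the positive arrays and 27.1 ± 0.0053 in the negative arrays (SD, n = 2 each), a log2 change of 0.41 (limma adjusted p = 0.000684) that was 0.19 with quantile and 0.20 with loess normalization. Krt5, a keratin gene of basal epithelial cells, had 12.7 ± 0.212 in the positive arrays and 5.85 ± 0.128 in the negative arrays, a log2 change of 1.12 (limma adjusted p = 6.25e-07). Pparg, a nuclear receptor gene, was lower by a log2 change of -0.92 (limma adjusted p = 8.76e-05). Upk1a and Pparg were not called with each probe on its own spread.

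Anxa8 encodes annexin A8, a protein that binds phospholipid membranes in the presence of calcium. It had 23.9 and 23.7 in the positive arrays, against 3.11 and 3.48 in the negative arrays, a log2 change of 2.86. The 2 positive arrays were almost equal, and all 4 ratios between the groups lay between 6.81 and 7.69. Of 5 other annexin genes tested, 2 were called higher, 1 lower and 2 not called, again near the shares of 40.6% and 23.6% over all tested probes. Anxa1 had 23.9 ± 1.26 in the positive arrays and 9.32 ± 0.0194 in the negative arrays (SD, n = 2 each; log2 change 1.36, limma adjusted p = 2.5e-07), and Anxa2 3.15 ± 0.448 in the positive arrays and 1.36 ± 0.209 in the negative arrays (log2 change 1.21, limma adjusted p = 3.2e-05), a call that Anxa2 lost with each probe on its own spread. Anxa11 was below the limit for dim probes in the positive arrays, with 0.337 against 2.26 in the negative arrays (limma adjusted p = 7.28e-07). Its second probe went the other way, with a log2 change of 1.80, so its direction is not settled.

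**Figure D2:**
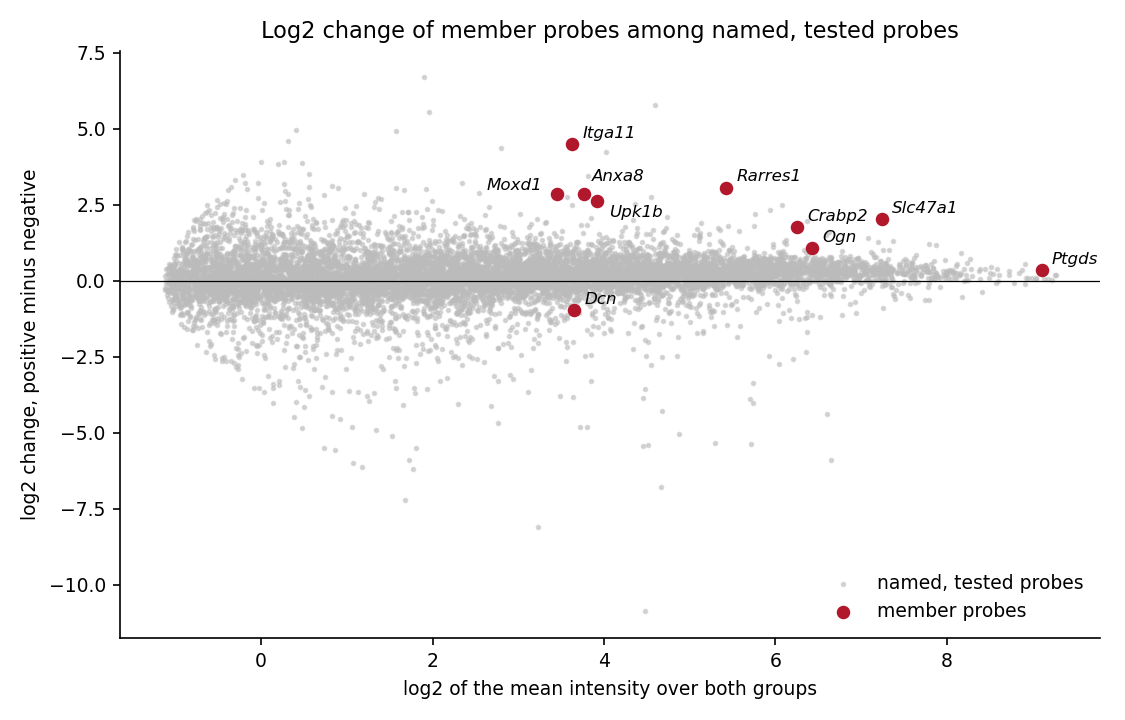
Log2 change, positive minus negative (vertical axis), against the log2 of the mean intensity over both groups (horizontal axis) for 9773 named, tested probes in grey, with the 10 tested member probes in red. Itga11 lies highest among the members at a log2 change of 4.50, Ptgds lies at the bright end at 0.34, and Dcn is the member below 0.

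Mesothelial genes apart from the members were measured to set beside Upk1b, Anxa8 and Rarres1. Of 22 such genes 16 had a probe and 13 were tested, and 8 (61.5%) were called higher, 3 (23.1%) lower and 2 not called (limma, Benjamini-Hochberg). Of all tested probes, 40.6% were called higher and 23.6% lower. The median log2 change of the 13 was 0.28, beside 0.11 over all tested probes, and with quantile or loess normalization 6 were called higher and 3 lower. All 8 higher genes were read from the late part, and 0 are left when late probes are not named. Msln, the mesothelin gene, had 2.52 ± 0.134 in the positive arrays and 0.445 ± 0.0245 in the negative arrays, a mean below the limit for dim probes (SD, n = 2 each; limma adjusted p = 3.44e-07). Krt19, a simple-epithelium keratin gene, had 9.44 ± 1.05 in the positive arrays and 2.88 ± 0.0436 in the negative arrays (log2 change 1.71, limma adjusted p = 2.43e-07). Efemp1, a matrix glycoprotein gene, had 83.4 ± 3.40 in the positive arrays and 23.8 ± 3.35 in the negative arrays (log2 change 1.82, limma adjusted p = 3e-07), though a dimmer probe of it had a log2 change of -1.03. The 3 genes called lower were Cav1, Gpm6a and Cd200, all from the late part. Cav1 had 8.48 in the positive arrays and 16.55 in the negative arrays (log2 change -0.97, limma adjusted p = 1.35e-06). Gpm6a had 25.3 and 43.7 (log2 change -0.79, limma adjusted p = 6.15e-06). Cd200 was dim, with 0.416 and 0.804 (limma adjusted p = 0.00947). Wt1, a transcription factor gene that marks mesothelium, was not called, with 1.81 in the positive arrays and 1.95 in the negative arrays (limma adjusted p = 0.365). Pdpn was at or below 0 on at least 1 array.

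Rarres1 and Crabp2 belong to retinoid biology. Retinoic acid is made from vitamin A by aldehyde dehydrogenases, is carried in the cell by binding proteins such as that of Crabp2, and acts through nuclear receptors on target genes, of which Rarres1 is one. Rarres1 had 76.3 and 77.1 in the positive arrays, against 9.20 and 9.19 in the negative arrays, a log2 change of 3.06. Arrays of one group hardly differed for this probe, and the 4 ratios between the groups lay between 8.29 and 8.39. Crabp2, read from the late part, had 109 and 126 in the positive arrays, against 35.8 and 33.2 in the negative arrays, a log2 change of 1.76. The value listed at its own table row was dim, with 0.562 and 0.651 in the positive arrays, against 0.158 and 0.130 in the negative arrays, and lay in the same direction.

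The 9 other genes of retinoid handling that were tested did not share one direction: 4 were called higher, 3 lower and 2 not called, beside 40.6% higher and 23.6% lower over all tested probes. With quantile normalization 2 were higher and 3 lower, and with loess 2 and 4. Aldh1a2, the retinaldehyde dehydrogenase gene of the meninges, had 49.2 ± 1.17 in the positive arrays and 20.1 ± 0.129 in the negative arrays (SD, n = 2 each), a log2 change of 1.29 ± 0.07 (SE; limma adjusted p = 2.41e-07). Tgm2, a transglutaminase gene induced by retinoic acid, had 41.3 ± 0.631 in the positive arrays and 30.2 ± 3.25 in the negative arrays, a log2 change of 0.46 (limma adjusted p = 0.000851) that was 0.22 with quantile and 0.24 with loess normalization, and its call was lost with each probe on its own spread. Rxrg, a retinoid X receptor gene, was below the limit for dim probes in the positive arrays, with 0.362 against 1.56 in the negative arrays (limma adjusted p = 4.33e-06). Its second probe had a log2 change of -0.088. The median log2 change of the 9 was -0.11, beside 0.11 over all tested probes.

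Slc47a1 and Ptgds are genes that leptomeningeal fibroblasts are known to use. Slc47a1 encodes an exporter that moves organic cations out of the cell in exchange for protons. Its late probe had 260 and 227 in the positive arrays, against 57.9 and 60.8 in the negative arrays, a log2 change of 2.03. Its early probe was dim, with 1.12 and 0.885 in the positive arrays, against 0.115 and 0.124 in the negative arrays, which lie below the limit for dim probes. The groups did not overlap on either probe, and both were higher in the positive arrays. At its own table row the late probe is at 0.118 or lower on every array, so its level rests on the reading 5 rows later.

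Of 5 other organic ion transporter genes tested, 4 were called higher and 1 was not called, where 40.6% of all tested probes were called higher and 23.6% lower. With loess normalization 3 were higher. Slc22a4, left untested because its mean log2 fell below the limit, went the other way. It had 0.004 and 0.217 in the positive arrays, against 2.31 and 2.45 in the negative arrays. Slc22a3, a transporter gene for organic cations, had 8.46 ± 0.866 in the positive arrays and 3.89 ± 0.280 in the negative arrays (SD, n = 2 each; log2 change 1.12, limma adjusted p = 4.22e-06). Slc22a8, an organic anion transporter gene, had 0.839 in the positive arrays and 0.273 in the negative arrays, a mean below the limit for dim probes (limma adjusted p = 0.00034). Slc22a5, a carnitine transporter gene, had a log2 change of 0.31 (limma adjusted p = 0.00926), a call that was lost on its own spread and without negative replicate 2, where the log2 change was 0.24, and another of its probes had a log2 change of 1.87.

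Ptgds encodes the enzyme that makes prostaglandin D2 and is secreted into cerebrospinal fluid. It was among the brightest probes of every array. It had 605 and 623 in the positive arrays, against 448 and 525 in the negative arrays, a log2 change of 0.34. These values are 94.5% and 89.3% of the highest value on the positive arrays and 66.8% and 80.2% of that on the negative arrays. The positive arrays were above the negative ones, but the log2 gap between the 2 negative arrays, 0.23, was more than the gap in any other tested member's negative arrays. With loess normalization the log2 change of Ptgds was 0.015 and the groups overlapped, and with quantile normalization it was 0.23. A direction for Ptgds is not settled by these arrays.

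The other genes of prostaglandin metabolism included 5 called higher and 0 called lower of 7 tested, and 2 not called, beside 40.6% higher and 23.6% lower over all tested probes. With either normalization 3 were higher and 1 lower. Ptgis, the prostacyclin synthase gene, had 13.3 ± 2.26 in the positive arrays and 2.88 ± 0.007 in the negative arrays (SD, n = 2 each), a log2 change of 2.20 ± 0.10 (SE; limma adjusted p = 1.75e-07). Slco2a1, a prostaglandin transporter gene, had 1.08 ± 0.0883 in the positive arrays and 0.322 ± 0.0997 in the negative arrays, a mean below the limit for dim probes (limma adjusted p = 0.000227). Ptges2 had a log2 change of 0.29 (limma adjusted p = 0.00518) that was not called with either normalization. Neither Slco2a1 nor Ptges2 was called with each probe on its own spread. The median log2 change of the 7 was 0.53, beside 0.11 over all tested probes.

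A wider list of leptomeningeal genes, members left out, was called higher more often than lower. Of 34 such genes 27 had a probe and 23 were tested, and 15 (65.2%) were called higher, 2 (8.7%) lower and 6 not called (limma, Benjamini-Hochberg), where 40.6% and 23.6% of all tested probes were called. The median log2 change was 0.56, beside 0.11. With quantile normalization 14 were higher and 3 lower, and with loess 13 and 3. The list was chosen with earlier results of these data known, and its genes were read at their brightest probes. On the deposited scale the median change of all tested probes was -0.002 below a log2 level of 0 and 0.27 between 4 and 6. The shares are thus a description and not a test. The summed level of the 27 genes was 1388 to 1400 in the positive arrays and 994 to 1022 in the negative arrays, and none was at or below 0 on any array. Among the brightest in this sum were Slc13a4, Mgp, Gjb6 and Cldn11. Their means were 246.5, 225.3, 185.0 and 184.5 in the positive arrays, against 146.5, 138.1, 125.5 and 194.4 in the negative arrays. Another probe of Slc13a4 had a log2 change of -3.02. Igfbp5, an insulin-like growth factor binding protein gene, had 36.3 ± 0.0518 in the positive arrays and 11.4 ± 0.672 in the negative arrays (SD, n = 2 each; log2 change 1.67, limma adjusted p = 7.75e-08), though its other probe had a log2 change of 0.30. Foxp2, a forkhead factor gene, had 10.3 ± 0.214 in the positive arrays and 3.93 ± 0.151 in the negative arrays (log2 change 1.39, limma adjusted p = 2.31e-07), and Foxc1, the forkhead factor gene needed for meningeal development, 21.8 ± 2.90 in the positive arrays and 9.10 ± 0.885 in the negative arrays (log2 change 1.25, limma adjusted p = 4.51e-06), though another of its probes had a log2 change of -0.13. Cdh1, the E-cadherin gene of the arachnoid barrier, had 90.5 ± 9.24 in the positive arrays and 45.9 ± 4.91 in the negative arrays (log2 change 0.98, limma adjusted p = 1.63e-05). The calls of Foxc1 and Cdh1 were lost with each probe on its own spread. Lama1, a laminin chain gene of the pial basement membrane, was lower, with 9.12 ± 0.275 in the positive arrays and 36.7 ± 1.82 in the negative arrays (log2 change -2.01, limma adjusted p = 2.98e-08). Tagln2 was the other gene called lower (log2 change -0.56, limma adjusted p = 5.82e-05). Not called were Cldn11 (log2 change -0.075), Tbx18 (-0.06), Zic2 (-0.38), Gja1 (-0.28), Gjb2 (0.13) and Slc22a6 (0.11). With quantile and loess normalization Cldn11 was called lower, at -0.34 and -0.37, though another of its probes had a log2 change of 2.51. This list shares Aldh1a2 with the retinoid genes and 3 organic ion transporter genes with the transporter list. Of 6 choroid plexus genes tested, 1 was called higher and 1 lower. Otx2 was higher, with 1.14 in the positive arrays and 0.519 in the negative arrays (limma adjusted p = 0.000238). Folr1 was lower, with 6.10 and 7.22 (limma adjusted p = 0.0148), a call lost with each probe on its own spread. Ttr, the defining gene of that epithelium, was dim, with 0.206 in the positive arrays and 0.119 in the negative arrays. The neuron gene Snap25 was dim too, with 0.064 and 0.098, so a dim probe need not mean an absent transcript.

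**Figure D3:**
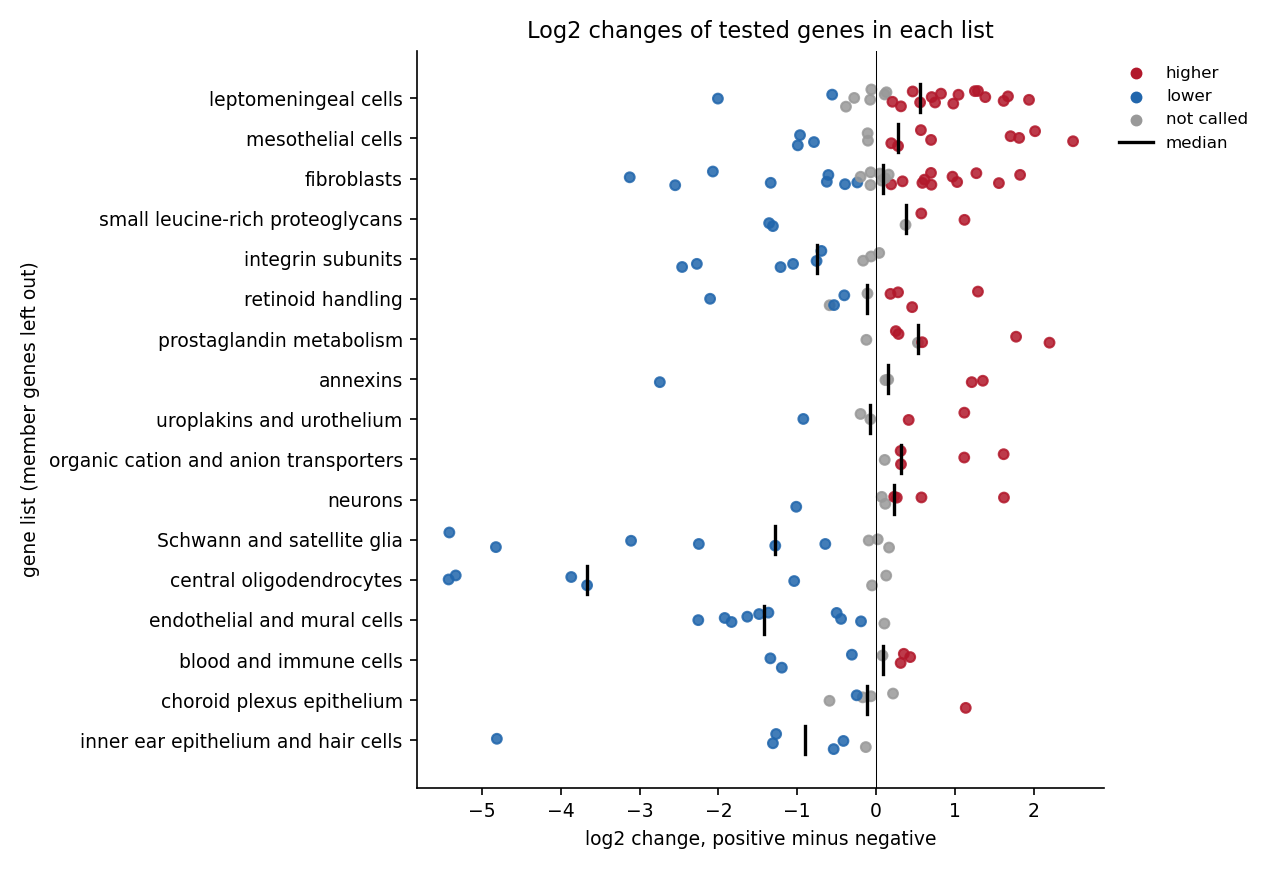
Log2 change, positive minus negative (horizontal axis), of each tested gene in the 17 gene lists (rows), members left out, with red for genes called higher, blue for genes called lower, grey for genes not called and a black bar at the list's median. The leptomeningeal median lies at 0.56, the fibroblast median at 0.092, and the glial, endothelial and integrin medians lie below 0.

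Ogn and Dcn, the small leucine-rich proteoglycan genes of the set, differed in opposite directions. Both encode secreted proteins of collagen-rich matrix, osteoglycin and decorin, of which decorin coats collagen fibrils. Ogn had 124 and 111 in the positive arrays, against 53.4 and 56.9 in the negative arrays, a log2 change of 1.08. Dcn had 7.75 and 9.22 in the positive arrays, against 16.55 and 16.53 in the negative arrays, a log2 change of -0.97. In neither gene did the groups overlap. The log2 change of Ogn was 0.87 with quantile and 0.83 with loess normalization, and that of Dcn was -1.13 and -1.14.

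The other proteoglycans of this family were likewise divided. Of 5 tested, all from the late part, 2 were called higher, 2 lower and 1 was not called, beside 40.6% higher and 23.6% lower over all tested probes. Ecm2, which lies in the same stretch of chromosome as Ogn, had 2.82 ± 0.0735 in the positive arrays and 1.30 ± 0.103 in the negative arrays (SD, n = 2 each; log2 change 1.12, limma adjusted p = 7.29e-06). Epyc, which lies near Dcn, had 2.01 ± 0.0599 in the positive arrays and 5.02 ± 0.818 in the negative arrays (log2 change -1.31, limma adjusted p = 5.28e-06). Bgn, the biglycan gene, was lower, with 5.78 ± 0.0697 in the positive arrays and 14.8 ± 1.04 in the negative arrays (log2 change -1.36, limma adjusted p = 3.47e-07). Omd, next to Ogn, was too dim to be tested, at 0.430 in the positive arrays and 0.191 in the negative arrays, and so was Lum, next to Dcn, at 0.170 in the positive arrays and 0.324 in the negative arrays. The pairing by chromosome neighbourhood was picked out after these values were seen.

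Moxd1 encodes a copper-dependent monooxygenase-like protein related to dopamine beta-hydroxylase. It had 19.5 and 19.0 in the positive arrays, against 2.56 and 2.79 in the negative arrays, a log2 change of 2.85. The ratios between the groups ran from 6.83 to 7.61 and the arrays within each group were close. It was set beside fibroblast genes. Of 41 fibroblast genes other than members 34 had a probe and 26 were tested, and 11 (42.3%) were called higher, 8 (30.8%) lower and 7 not called (limma, Benjamini-Hochberg), close to the shares over all tested probes of 40.6% and 23.6%. With either normalization 9 were higher and 11 lower. The median log2 change was 0.092, beside 0.11 over all tested probes. The summed level of the 34 genes was 1314 to 1355 in the positive arrays and 1133 to 1152 in the negative arrays. The brightest in this sum were Vim, Thy1 and Sparc, and Thy1 is also in the neuron list and its sum. Their means were 361, 343 and 226 in the positive arrays, against 240, 326 and 258 in the negative arrays.

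Within the fibroblast list, genes of elastic fibres were called in both directions. Eln, the elastin gene, had 1.35 ± 0.0536 in the positive arrays and 11.8 ± 0.0024 in the negative arrays (SD, n = 2 each; log2 change -3.13, limma adjusted p = 2.96e-09). Fbln5, a fibulin gene needed for elastic fibre assembly, had 0.854 ± 0.0207 in the positive arrays and 3.59 ± 0.127 in the negative arrays (log2 change -2.07, limma adjusted p = 1.44e-07). Fbln2 was below the limit for dim probes in the positive arrays, with 0.316 against 1.75 in the negative arrays (limma adjusted p = 4.38e-05), a call lost with each probe on its own spread. Mfap5, a microfibril-associated glycoprotein gene, was higher, with 20.8 ± 0.946 in the positive arrays and 5.89 ± 0.917 in the negative arrays (log2 change 1.83, limma adjusted p = 4.12e-07). Fbn1, the fibrillin-1 gene, had a log2 change of 0.70 (limma adjusted p = 2.43e-05) and Loxl1, a gene of an elastin-crosslinking enzyme, one of 1.03 (limma adjusted p = 0.000808). Lox, of the same enzyme family, was not called on the deposited scale (log2 change -0.07, limma adjusted p = 0.403) and was called lower with either normalization. Of 7 collagen chain genes tested, 2 were called higher, 4 lower and 1 was not called, with log2 changes from -1.34 to 0.34, and with either normalization 0 were higher and 4 lower. Timp1, a gene of an inhibitor of matrix metalloproteinases, was higher, with 36.5 ± 0.579 in the positive arrays and 15.1 ± 0.576 in the negative arrays (log2 change 1.27, limma adjusted p = 2.98e-07). Most endothelial and mural markers were called lower in the positive arrays, as were most glial, oligodendrocyte and inner ear markers. Of 10 endothelial and mural genes tested, 0 were called higher and 9 lower, with a median log2 change of -1.43. Vwf, the von Willebrand factor gene, had 6.99 ± 0.610 in the positive arrays and 33.3 ± 1.93 in the negative arrays (limma adjusted p = 3.61e-08). The part of vessel cells in the lower matrix genes was not tested.

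**Figure D4:**
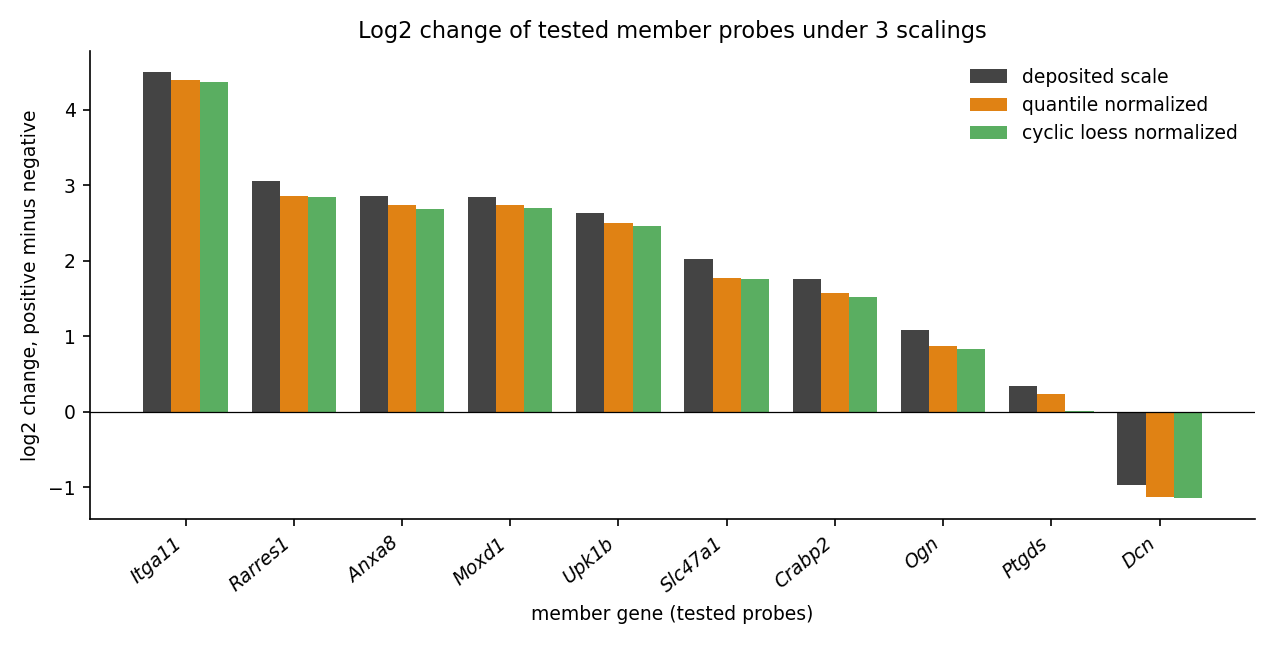
Log2 change, positive minus negative (vertical axis), of the 10 tested member probes on the deposited scale (dark bars), after quantile (orange bars) and after cyclic loess normalization (green bars). Itga11 is at 4.50, 4.40 and 4.38 and Ptgds at 0.34, 0.23 and 0.015 under the 3 scalings.

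The members kept their order by log2 change under both normalizations, except that Moxd1 then stood just above Anxa8. Over all tested probes the median log2 change was 0.014 with quantile and -0.014 with loess normalization, beside 0.11 on the deposited scale, and over the 10 members it was 2.14 and 2.11, beside 2.33. On the deposited scale the median log2 change was -0.002 for the 3809 probes with a mean log2 level below 0, 0.27 for the 3332 probes between 4 and 6, and 0.17 for the 1734 probes above 6. The bright members Slc47a1, Crabp2 and Ogn had log2 changes of 1.76, 1.52 and 0.83 with loess normalization, against 2.03, 1.76 and 1.08 on the deposited scale.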

How the data were processed

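Per the labels, total RNA of calretinin-stained, laser-captured rat vestibular ganglion cells was labelled with Cy5. The authors deposited linear intensities in 1 value table. How they corrected background and normalized, and on which scanner, is not stated in the labels read here; that each array's median lies near 1 was seen in the values.

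Of 35126 probes 9 were missing on every array. Missing entries besides these, and zero or negative ones, took the 1st percentile of all positive values on that array, and log2 followed. Probes whose mean log2 lay below the 40th percentile were left out, which left 21070. The test was two-sided, by limma 3.58.1 (eBayes with a mean trend after lmFit; R 4.3.3), with Benjamini-Hochberg adjustment over all tested probes and a threshold of 0.05. The script was tested on simulated data. Log2 changes are positive minus negative, and means and SDs are linear.

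Names came from the platform annotation, with symbols updated by gene ID through RefSeq (16649 of 16677 probes with 1 symbol matched); 163 probes had several symbols and 18286 none. In the late part, 7218 probes with 1 symbol took the value 5 table rows later, and 2010 between the parts were not named. Of several probes of a gene, the one of highest mean log2 was taken. The members and gene lists were chosen with earlier results of these data known. Named genes are all members, the 3 genes with the smallest p in each list (2 for other cell types, of which only those that bear on a member are given values) and Calb2. Chosen after their values were seen were Foxc1, Cdh1, Wt1, Fbln2, Itga1, Omd, Lum, Lxn, Mfap5, Fbn1, Loxl1, Lox, Pias1, Calml4, Igsf11, Bcan, Iars1, Nol8, Ttr, Mag, Tie1, Pdpn, Slc22a4, Thy1, Vim and Sparc. So were Tagln2, Cldn11, Tbx18, Zic2, Gja1, Gjb2, Slc22a6, Slc13a4, Mgp, Gjb6, Cav1, Gpm6a, Cd200 and Snap25. The deviations of arrays with the same replicate number were uncorrelated (r = 0.000316), and the numbers were not used as pairs. Alternatives were quantile and cyclic loess normalization, other filters, low values left missing, the replicate block, own spreads, other readings of late names and leaving out each array. Figures were drawn with matplotlib 3.10.9.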

Additional observations from a re-analysis of the deposited data

How the results depend on the processing

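The number of probes called, 13530, was 7082 when each probe was tested on its own spread, and the number of list genes called, 112 of 152 tested, was 59 with late probes not named, which leaves fewer genes. Other settings kept both counts within 1.5 times. Without 1 array, 12382 to 12916 probes and 101 to 106 list genes were called, the lone array being assumed to vary like the other group, and the replicate block gave 13711 and 113. The number of members with both positive arrays above both negative arrays, 9, was 8 with loess normalization and 8 with late probes not named, and 9 without any 1 array. Of 87 log2 changes of member probes under an alternative, 86 kept their sign. The exception was the late probe of Upk1b, whose log2 change was -0.294 at its own table row. The mesothelial genes called higher, 8, were 5 with late probes at their own row, and the mesothelial genes called lower, 3, were 1. Fibroblast genes called lower, 8, were 5 under a filter at the 60th percentile, 5 on their own spread and 3 with late probes not named. Of 511 log2 changes of named list genes under settings that keep the names, 496 kept their call and direction and 15 lost the call. With late probes at their own table row, 11 of 20 named genes changed sign, with log2 changes of 1.15 for Bgn, 0.269 for Epyc, 0.913 for Folr1, 0.0970 for Itga6, 0.0150 for Itgb3, 0.124 for Pparg, 0.0690 for Rxrg, -0.294 for Slco2a1, -0.0280 for Upk1a, 0.0840 for Vwf and -0.329 for Lxn. Late genes with no value to compare under that reading include Eln, Foxp2, Ecm2 and Anxa11. For the other changes the cause was not tested. The named genes had been picked for small p-values here.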

Other observations

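Genes beside the members on the chromosome were looked at after the member values were seen, taking up to 4 protein-coding genes on each side in the RefSeq order. Of 46 such neighbours tested, 19 (41.3%) were called higher, 9 (19.6%) lower and 18 not called (limma, Benjamini-Hochberg), where 40.6% of all tested probes were called higher and 23.6% lower. The neighbours with the largest changes went both ways. Beside Itga11, Pias1, a SUMO ligase gene, had 6.19 in the positive arrays and 100.8 in the negative arrays (log2 change -4.03, limma adjusted p = 4.96e-10), and Calml4, a calmodulin-like gene, had 19.9 in the positive arrays and 2.69 in the negative arrays (log2 change 2.88, limma adjusted p = 2.7e-09). Igsf11, an immunoglobulin superfamily gene beside Upk1b, had a log2 change of -2.77 (limma adjusted p = 6.46e-09) and Bcan, the brevican gene beside Crabp2, one of -1.94 (limma adjusted p = 2.17e-08). Lxn, which encodes latexin, a carboxypeptidase inhibitor related in sequence to the protein of its neighbour Rarres1, had 96.8 in the positive arrays and 40.5 in the negative arrays, a log2 change of 1.26 ± 0.08 (SE; limma adjusted p = 9.29e-07), read from the late part, and the sign turned at the own table row. Iars1 and Nol8, an aminoacyl-tRNA synthetase gene and a nucleolar protein gene beside Ogn, had log2 changes of 1.01 (limma adjusted p = 3.53e-06) and 1.03 (limma adjusted p = 1.6e-06).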
